A study of Homo sapiens with 6 samples.

Results

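The protein kinase C (PKC) family was followed in RNA sequencing data from 6 xenograft tumour libraries grown from MHCC97L, a human liver cancer cell line. Its 8 members here, PRKCA, PRKCB, PRKCD, PRKCE, PRKCH, PRKCI, PRKCQ and PRKCZ, were taken by gene symbol from 58515 symbols that stand on a single row. They were chosen from measured values, since Ctrl and rhLUM levels of the family were known when the list was drawn up, so the contrast of the members below is a description and carries no test. A total of 6 members reached a mean of 1 TPM (a transcript's length-scaled share of the library) and entered the fit of 14781 genes. The remaining pair, PRKCQ and PRKCZ, did not.

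The libraries form 2 groups of 3, lettered A, B and C. Ctrl libraries came from xenografts without added protein, and rhLUM libraries from xenografts that received recombinant human lumican, a proteoglycan of the extracellular matrix that carries leucine-rich repeats. The lumican dose, route and duration, the host animal, and whether the letters mark separate tumours are not stated in the labels, and all tumours derive from 1 cell line. The p-values therefore reflect only how far these libraries spread, which may be technical. No batch or date is named, so values within batches could not be given.

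PKC isoforms are serine and threonine kinases that share a catalytic domain and differ in what switches them on. Classical isoforms (cPKC, here PRKCA and PRKCB) need calcium and the membrane lipid diacylglycerol, nPKC isoforms (PRKCD, PRKCE, PRKCH and PRKCQ) respond to diacylglycerol without calcium, and atypical isoforms (aPKC, PRKCI and PRKCZ) need neither and are instead directed by scaffold and polarity proteins. Phospholipases C release diacylglycerol from membrane phosphoinositides, and diacylglycerol kinases remove it. In epithelial cells such as hepatocytes, PKC isoforms are known for roles in polarity, adhesion, growth and the control of metabolism.

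The promoters of 3 members are printed because they bracket the range of the family: PRKCB and PRKCA had the largest differences between the groups, and PRKCI, the most abundant isoform in Ctrl, had one of the smallest. Each is the RefSeq window (GRCh38.p14, plus strand, 5′ to 3′) from 250 bases before to 50 bases after the start of a RefSeq transcript, which is not the same base as the GENCODE gene start given with each gene further on, at chr16:23835733-23836032 for PRKCB, chr17:66302363-66302662 for PRKCA and chr3:170222174-170222473 for PRKCI. Capitals mark matches, on either strand, to the GC box GGGCGG, the E-box CAGCTG and the octamer ATGCAAAT.
PRKCB: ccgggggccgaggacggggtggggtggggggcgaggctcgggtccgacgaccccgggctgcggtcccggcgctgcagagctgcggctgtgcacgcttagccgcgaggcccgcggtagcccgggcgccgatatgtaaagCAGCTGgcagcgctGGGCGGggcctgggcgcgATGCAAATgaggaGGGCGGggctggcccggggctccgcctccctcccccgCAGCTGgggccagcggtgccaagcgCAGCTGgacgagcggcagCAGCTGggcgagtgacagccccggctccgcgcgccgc
PRKCA: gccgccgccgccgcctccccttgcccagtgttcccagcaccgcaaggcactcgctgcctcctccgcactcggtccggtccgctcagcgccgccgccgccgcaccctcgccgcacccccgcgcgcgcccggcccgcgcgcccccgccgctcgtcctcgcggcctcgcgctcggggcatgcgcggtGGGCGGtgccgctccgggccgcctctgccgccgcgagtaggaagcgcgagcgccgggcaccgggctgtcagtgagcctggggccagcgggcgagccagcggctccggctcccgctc
PRKCI: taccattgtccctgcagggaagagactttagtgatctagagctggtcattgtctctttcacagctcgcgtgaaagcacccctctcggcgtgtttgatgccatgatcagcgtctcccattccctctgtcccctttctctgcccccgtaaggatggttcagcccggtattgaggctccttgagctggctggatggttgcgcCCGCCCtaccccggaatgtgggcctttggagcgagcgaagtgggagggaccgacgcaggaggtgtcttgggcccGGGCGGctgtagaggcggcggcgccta

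The PRKCB window held 2 GC boxes, 4 E-boxes and 1 octamer, none overlapping another. At least 4 E-boxes of these letters were found in 0.0313% of the 35116 promoters of the same length, any E-box in 17.95%, the octamer in 1.77% and the GC box in 44.95%. The PRKCA window held 1 GC box and the PRKCI window 2, and neither held an E-box or an octamer. G and C made up 77.7% of the PRKCB window, 81.3% of PRKCA and 60.7% of PRKCI, against a median of 58.7% over all promoters. Across all 13 promoter entries of the 8 members, 10 had a GC box, 3 an E-box, 1 the octamer, 1 (PRKCQ) a TATA box TATAAA, present in 11.5% of all promoters, and 0 the AP-1 motif TGANTCA, present in 7.71%. The motifs and the cut of 4 E-boxes were chosen after these windows had been read, so their rarity is no test. A match is a description of letters only, and no binding was measured.

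As a family, PKC transcripts were more abundant with rhLUM, and most of the difference lay in the classical pair. The summed level of the 8 members was 61.3, 60.7 and 61.5 TPM in Ctrl A, B and C and 132, 136 and 138 TPM in rhLUM A, B and C. All rhLUM sums stood above all Ctrl sums, 135 ± 3.10 against 61.2 ± 0.43 TPM (SD, n = 3 per group), a ratio of 2.21. PRKCA and PRKCB together made up 79.3% of the increase. TPM is scaled per transcript length, so levels of different genes can be set side by side. It is also a share of a fixed sum, and mitochondrial transcripts took 20.5% to 20.7% of it in Ctrl and 14.3% to 14.5% in rhLUM. Rescaled without them, the sums were 77.0 TPM in Ctrl and 158 TPM in rhLUM. In bulk tissue, more cells of a type and more RNA per cell cannot be told apart.

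**Figure D1:**
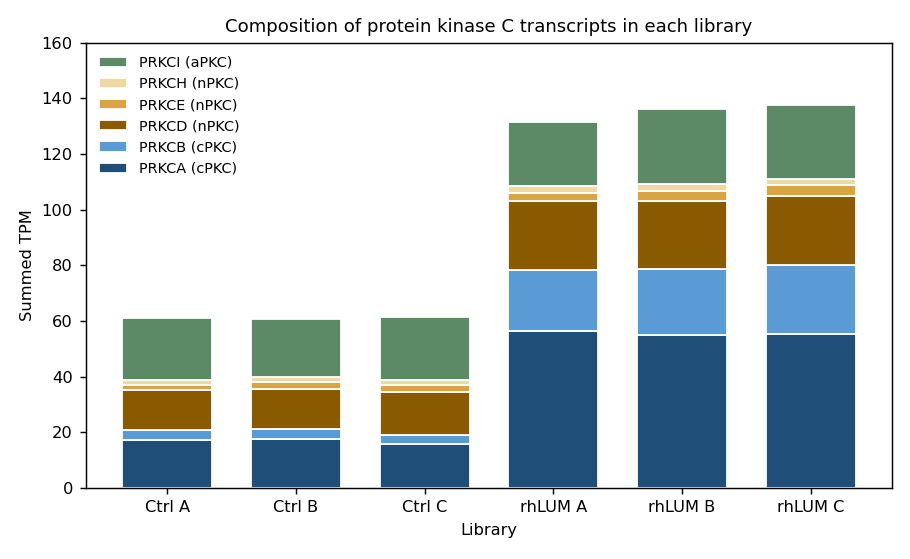
Stacked bars give the TPM of each isoform in each of the 6 libraries (y axis, summed TPM from 0). The classical pair (blue) grew from 19.1 to 21.1 TPM in the Ctrl libraries to 78.3 to 80.1 TPM in the rhLUM libraries, while PRKCI (green) stayed between 20.8 and 27.0 TPM. PRKCQ and PRKCZ are too low to be visible and are not drawn.

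The make-up of the family differed accordingly. Classical isoforms held 33.2 ± 1.90% of the family's TPM in Ctrl and 58.4 ± 0.90% in rhLUM, nPKC isoforms 30.6 ± 1.32% and 22.6 ± 0.26%, and atypical isoforms 36.2 ± 1.64% and 19.0 ± 1.13% (SD, n = 3). For each class, all shares of one group lay outside the range of the other. The share of PRKCB went from 5.67 ± 0.22% to 17.3 ± 0.78%, and that of PRKCA from 27.5 ± 1.81% to 41.1 ± 1.52%. The nPKC and atypical classes gave up share although their summed TPM was not lower: nPKC isoforms summed to 18.7 ± 0.82 TPM in Ctrl and 30.5 ± 0.35 in rhLUM, and atypical isoforms to 22.1 ± 1.15 and 25.7 ± 2.06. Because the shares add to a whole, a larger classical share requires smaller others.

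The order of the isoforms by level also differed. In Ctrl the order was PRKCI, PRKCA, PRKCD, PRKCB, PRKCE and PRKCH, and the 3 libraries of each of these genes did not overlap with those of its neighbour in the order. In rhLUM, PRKCA stood alone at the top, and PRKCI, PRKCD and PRKCB followed with overlapping ranges of 23.3 to 27.0, 24.6 to 24.7 and 21.8 to 24.9 TPM. PRKCE and PRKCH came next, each apart from its neighbours. PRKCQ and PRKCZ were last in both groups and overlapped each other.

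Of the 6 tested members, 5 were called higher with rhLUM (limma, adjusted p under 0.05), 0 were called lower and 1, PRKCH, was not called. Over all tested genes 44.5% were called higher and 22.3% lower. In all 6 tested members the 3 rhLUM libraries lay above the 3 Ctrl libraries, as was so for 47.0% of tested genes. The median log2 fold change was 0.61 over the tested members and 0.16 over all tested genes. Scaling by median of ratios shifted the median gene by -0.15, and 4 members then were called higher and 0 lower, with 34.4% of all genes called higher and 30.8% lower. The split over all genes was 6571 higher and 3299 lower as deposited and 5083 higher and 4555 lower after that scaling. As the members were chosen on this contrast, nothing is read from these counts.

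**Figure D2:**
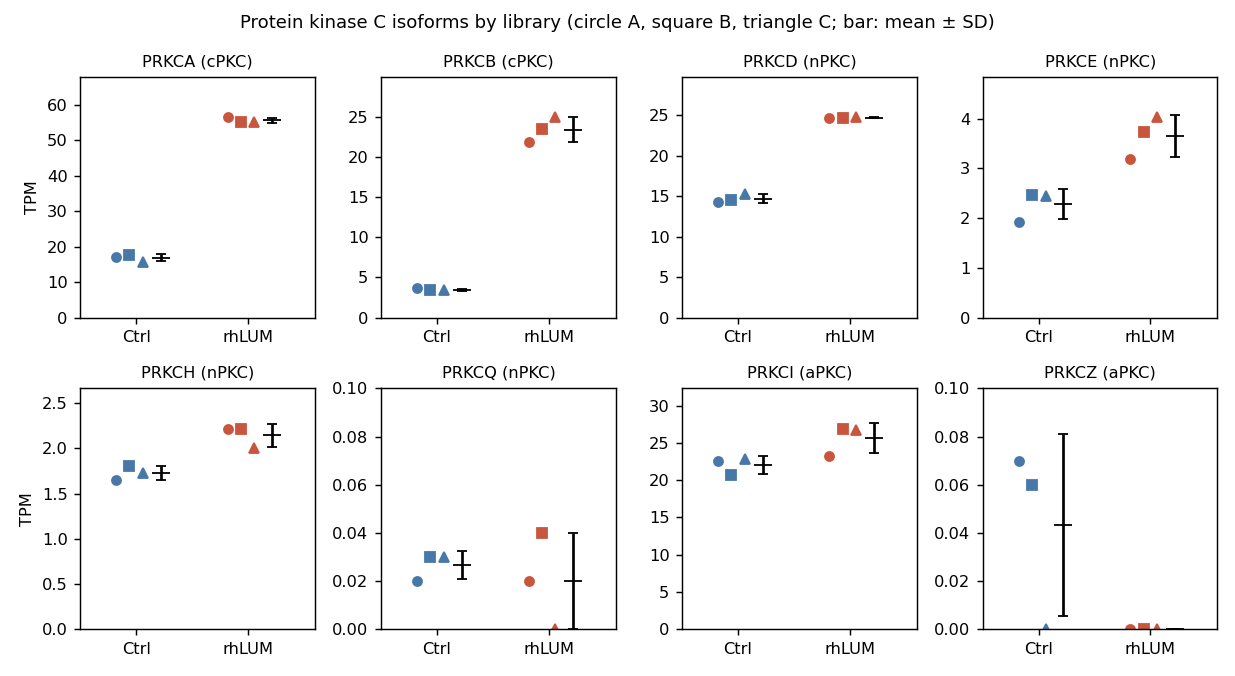
Each panel shows 1 isoform, with its TPM on a linear y axis from 0, Ctrl libraries in blue, rhLUM libraries in red and the mean ± SD (n = 3) as a bar beside them. The groups are furthest apart for PRKCB and PRKCA, lie close together for PRKCH and PRKCI, and overlap for PRKCQ. For PRKCZ, 1 Ctrl library and all rhLUM libraries are at 0.

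PRKCB encodes PKC beta, the classical isoform best known from B lymphocytes and from the response of tissues to high glucose. Its gene lies at chr16:23835946-24220611 (GRCh38, plus strand, protein coding). It measured 3.63, 3.39 and 3.39 TPM in Ctrl A, B and C and 21.8, 23.4 and 24.9 TPM in rhLUM A, B and C. Every rhLUM library stood far above every Ctrl library. PRKCB rose from 3.47 ± 0.14 to 23.4 ± 1.57 TPM (SD, n = 3), a ratio of means of 6.74. Its log2 fold change, taken on log2(TPM + 1), was 2.45 (SE 0.07, 95% interval 2.28 to 2.61), and 2.30 after median-of-ratios scaling. Of all tested genes, 0.142% had a larger one. The annotation lists 14 transcripts of this gene, 7 of them protein coding. Gene-level TPM cannot separate the beta I and beta II splice forms, which differ at the carboxyl end.

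PRKCA encodes PKC alpha, the widely expressed classical isoform. Its gene lies at chr17:66302636-66810743 (plus strand, protein coding). It measured 17.1, 17.7 and 15.7 TPM in Ctrl A, B and C and 56.5, 55.1 and 55.2 TPM in rhLUM A, B and C. The libraries of each group lay close together and the groups were well apart. PRKCA rose from 16.8 ± 1.00 to 55.6 ± 0.77 TPM, a ratio of 3.30, with a log2 fold change of 1.67 (SE 0.05, 95% interval 1.55 to 1.79), or 1.50 after median-of-ratios scaling. A larger log2 fold change was found in 0.886% of tested genes. In TPM, PRKCA gained more than any other member, and it replaced PRKCI as the most abundant isoform.

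PRKCD encodes PKC delta, an nPKC isoform known for roles in apoptosis and in the response to oxidative stress. It lies at chr3:53156009-53192717 (plus strand). It measured 14.3, 14.5 and 15.3 TPM in Ctrl and 24.7, 24.6 and 24.7 TPM in rhLUM (A, B and C). The 3 rhLUM values were almost the same, and the groups did not overlap. PRKCD rose from 14.7 ± 0.54 to 24.7 ± 0.065 TPM, with a log2 fold change of 0.71 (SE 0.05, 95% interval 0.60 to 0.82), or 0.55 after median-of-ratios scaling. A larger one was found in 15.9% of tested genes.

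PRKCE encodes PKC epsilon, an nPKC isoform known for its part in lipid-related insulin resistance of the liver and in cell motility. It lies at chr2:45651345-46187990 (plus strand). It measured 1.93, 2.47 and 2.44 TPM in Ctrl and 3.19, 3.74 and 4.03 TPM in rhLUM (A, B and C). Library A was the lowest of its group in both groups, and the groups did not overlap. PRKCE rose from 2.28 ± 0.30 to 3.65 ± 0.43 TPM, with a log2 fold change of 0.50 (SE 0.12, 95% interval 0.22 to 0.79), or 0.38 after median-of-ratios scaling. At this level the pseudocount of 1 understates the ratio of means, which was 1.60. A larger log2 fold change than that of PRKCE was found in 26.6% of tested genes.

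PRKCH encodes PKC eta, an nPKC isoform of epithelial tissues, at chr14:61187559-61550976 (plus strand). It measured 1.65, 1.80 and 1.73 TPM in Ctrl and 2.21, 2.22 and 2.00 TPM in rhLUM (A, B and C). The rhLUM values lay just above the Ctrl values, with rhLUM C nearest to them. The means were 1.73 ± 0.075 and 2.14 ± 0.12 TPM, and the log2 fold change of 0.20 (SE 0.11, 95% interval -0.06 to 0.47) was not called. PRKCH was called in 2 of 14 alternative fits, without the variance trend (0.20) and after the length and GC correction (0.26). It was 0.09 after median-of-ratios and 0.05 after upper quartile scaling. As deposited, 46.7% of tested genes had a larger log2 fold change.

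PRKCQ encodes PKC theta, the nPKC isoform of T lymphocytes and skeletal muscle, at chr10:6427143-6580301 (minus strand). Its values were 0.02, 0.03 and 0.03 TPM in Ctrl and 0.02, 0.04 and 0 TPM in rhLUM (A, B and C). These values overlap and are too low for a fold change to be given. The nearby gene PRKCQ-AS1, which does not overlap PRKCQ in the annotation used, measured 2.31 ± 0.36 TPM in Ctrl and 1.97 ± 0.27 in rhLUM.

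PRKCI encodes PKC iota, the atypical isoform that works with the PAR polarity complex and is known as an oncogene in several epithelial cancers. It lies at chr3:170222365-170305981 (plus strand). It measured 22.6, 20.8 and 22.9 TPM in Ctrl and 23.3, 27.0 and 26.8 TPM in rhLUM (A, B and C). The gap between the groups was small, with rhLUM A only slightly above the highest Ctrl library. The means were 22.1 ± 1.17 and 25.7 ± 2.06 TPM, and the log2 fold change was 0.21 (SE 0.07, 95% interval 0.04 to 0.37). Of all tested genes, 46.6% had a larger one. PRKCI was called higher as deposited, but in only 2 of 14 alternative fits. The call was lost after median-of-ratios scaling (0.05) and the value turned to -0.02 after upper quartile scaling and after the length and GC correction. It was also lost without Ctrl A (0.22), Ctrl B (0.16), Ctrl C (0.23), rhLUM B (0.17) or rhLUM C (0.18), and was kept without rhLUM A (0.27) and with a pseudocount of 0.1 (0.22).

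PRKCZ encodes PKC zeta, the atypical isoform that in many cells shares the partners of PKC iota, at chr1:2050470-2185395 (plus strand). Its values were 0.07, 0.06 and 0 TPM in Ctrl (A, B and C), and every rhLUM library listed it at 0. No fold change is given at these levels. Its locus overlaps FAAP20 on the opposite strand, which measured 23.0 ± 3.0 TPM in Ctrl and 15.2 ± 0.36 in rhLUM. Since use of strand in counting is not stated, it is not known how reads in sequence shared by an overlapping pair were assigned. PRKCA-AS1, which overlaps PRKCA on the opposite strand, was at 0 in all libraries. Atypical PKC transcripts in these tumours were thus almost all PRKCI, which supplied 36.1 ± 1.67% of the family's TPM in Ctrl and 19.0 ± 1.13% in rhLUM.

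**Figure D3:**
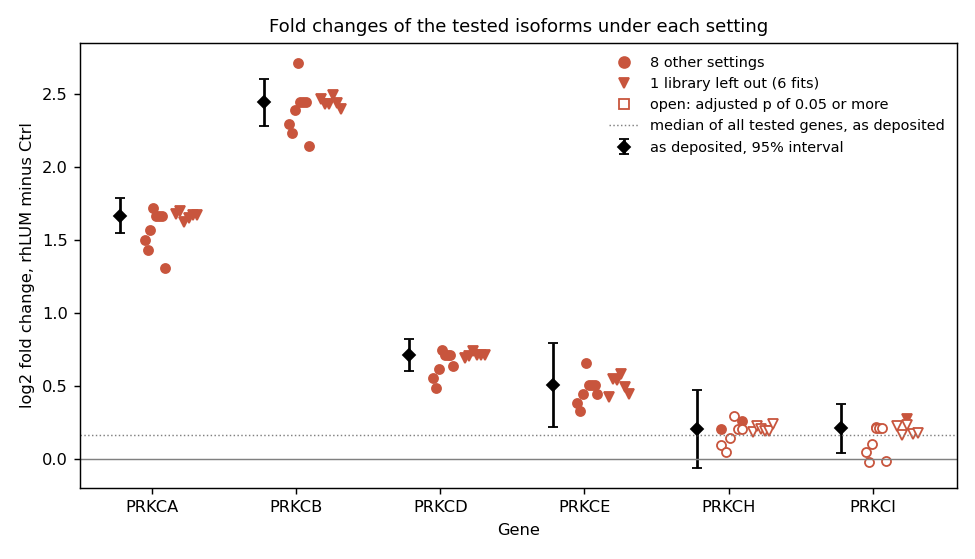
Log2 fold changes (y axis, rhLUM minus Ctrl) of the 6 tested isoforms are shown as deposited (black, 95% interval), under 8 other settings (circles) and with each library left out (triangles). Open symbols are fits with an adjusted p of 0.05 or more, and the dotted line is the median of all tested genes, 0.16. PRKCA, PRKCB, PRKCD and PRKCE are filled throughout, while most symbols of PRKCH and PRKCI are open.

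PRKCA, PRKCB, PRKCD and PRKCE were called higher in all 14 alternative fits. Their log2 fold changes ranged from 1.31 to 1.72 for PRKCA, 2.15 to 2.72 for PRKCB, 0.48 to 0.75 for PRKCD and 0.33 to 0.66 for PRKCE. These calls and intervals describe the contrast on which the members were chosen and are no independent support. The difference between isoforms was not itself tested.

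Libraries were also read for markers of liver cells and of other cell types. Liver markers were present, with summed levels of 2673 to 2696 TPM in Ctrl and 4722 to 4744 TPM in rhLUM. Albumin (ALB) was at 289 ± 3.08 TPM in Ctrl and 825 ± 15.4 TPM in rhLUM, and the apolipoprotein APOA1 only at 0.32 ± 0.021 and 1.21 ± 0.23 TPM. KRT8, an epithelial keratin, made up most of the difference in the sum (1060 ± 4.73 and 2474 ± 9.59 TPM). The liver markers did not move one way: SERPINA1 was lower in rhLUM (379 ± 2.27 and 208 ± 5.32 TPM), and AFP was at 31.2 ± 2.45 and 28.6 ± 1.95 TPM. The summed level of the 6 T cell markers was higher in rhLUM, at 6.26 to 7.30 TPM against 0.96 to 1.61 TPM in Ctrl. This came mainly from CD3G (0.71 ± 0.45 to 4.80 ± 0.55 TPM) and CD3D (0.35 ± 0.14 to 1.79 ± 0.40 TPM), while CD2 was at 0 in all libraries and CD3E, LCK and TRAC were each under 1 TPM in every library. The 4 B cell markers summed to 0.47 to 0.96 TPM and 1.15 to 2.39 TPM. This was almost all CD79A, with MS4A1 at 0 throughout and CD79B at 0 in rhLUM. PTPRC, the marker of all leukocytes, stood at 0.12 ± 0.10 TPM in Ctrl and 0.20 ± 0.036 TPM in rhLUM.

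The 6 myeloid and leukocyte markers summed to 222 to 223 TPM in Ctrl and 302 to 305 TPM in rhLUM, nearly all of it LYZ (180 ± 2.05 and 241 ± 3.34 TPM) and CD68 (33.6 ± 0.81 and 58.1 ± 2.24 TPM). In the same list ITGAM was lower in rhLUM (8.01 ± 0.69 and 3.84 ± 1.00 TPM), and AIF1 was at 0.29 ± 0.010 and 0.10 ± 0.18 TPM. Platelet markers (4 genes) summed to 11.2 to 13.6 TPM and 4.92 to 6.92 TPM, with GP9 at 0. The 5 endothelial markers summed to 21.6 to 23.0 TPM and 26.9 to 31.8 TPM, the 7 fibroblast and pericyte markers to 14.4 to 15.4 TPM and 10.0 to 13.7 TPM, and the 4 neuronal markers to 6.01 to 6.29 TPM and 5.46 to 6.26 TPM. Sums hid opposite members: the endothelial genes PECAM1 (16.4 ± 0.29 and 25.3 ± 2.43 TPM) and CDH5 (3.10 ± 0.34 and 0.45 ± 0.053 TPM) differed in direction. So did the fibroblast genes COL1A1 (3.30 ± 0.73 and 5.11 ± 0.92 TPM) and DCN (7.96 ± 0.35 and 1.26 ± 0.32 TPM). The tumours grew from a human cell line and reads were aligned to GRCh38, with any removal of host reads not stated. A marker sum is therefore no measure of infiltrating human cells. Whether the marker values come from the tumour cells or from host reads that align to human genes was not tested. PRKCB measured 21.8 to 24.9 TPM in rhLUM, and its level per lymphocyte relative to these markers is not known from these data. The part of other cells in the PKC values was not tested.

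Around the family, 8 lists of genes that make its activators, mature it, anchor it or act beside it held 81 genes. Of 62 tested, 35 were called higher and 12 lower as deposited, and 30 higher and 19 lower after median-of-ratios scaling. Among all tested genes 44.5% were called higher and 22.3% lower as deposited, and 34.4% and 30.8% after that scaling. The counts of each list below are to be set against these shares. The median log2 fold change of each of the 7 lists drawn is given below, to be set against 0.16 for all tested genes, and of the eighth, the related kinases, single genes are given.

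**Figure D4:**
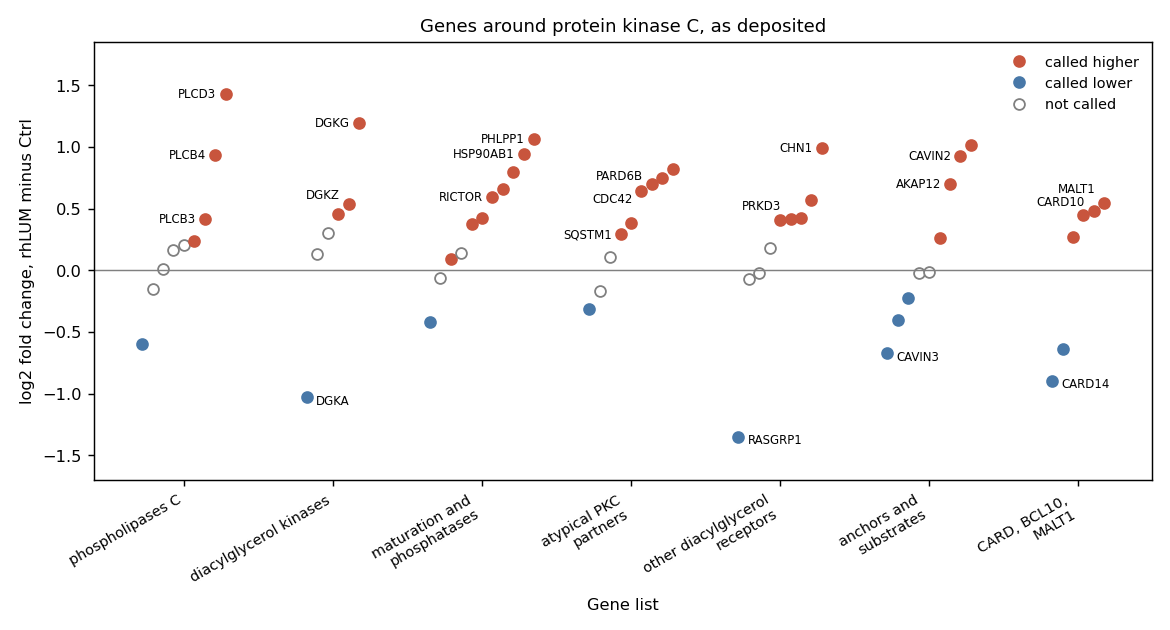
Each point is the log2 fold change (y axis, rhLUM minus Ctrl) of 1 tested gene of 7 lists around PKC, red where called higher, blue where called lower and open where not called, with the genes of smallest p named. The values run from -1.35 for RASGRP1 to 1.43 for PLCD3. The 1.67 of PRKCA and the 2.45 of PRKCB are larger, as they are than those of nearly all tested genes. Both isoforms were chosen on this contrast, so nothing is read from this.

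The enzymes that set the level of diacylglycerol, the lipid that classical and nPKC isoforms share as an activator, were mixed. Of 9 phospholipases C tested (12 listed), 4 were called higher, 1 lower and 4 were not called, with a median of 0.20. PLCD3, of the delta class, rose from 12.1 ± 2.45 to 34.7 ± 9.45 TPM (log2 fold change 1.43, SE 0.20, limma adjusted p = 0.000542), PLCB4 by 0.94 and PLCB3 by 0.42 on the log2 scale. PLCD1 was the one called lower (-0.60, SE 0.20). That call was lost without the filter on low values (-0.60) and without Ctrl A (-0.61), Ctrl B (-0.48) or rhLUM C (-0.44). The PLCD1 value moved to -0.95 with a pseudocount of 0.1. PLCB4 moved to 0.54 after the length and GC correction and PLCB3 to 0.20 after upper quartile scaling, with their calls kept. Of 6 diacylglycerol kinases tested (9 listed), 3 were called higher and 1 lower, at a median of 0.38. DGKG rose from 7.10 ± 0.60 to 17.6 ± 1.17 TPM (1.2, SE 0.08) and DGKZ rose by 0.53 on the log2 scale, whereas DGKA fell from 11.6 ± 2.38 to 5.15 ± 1.01 TPM (-1.03, SE 0.16). DGKZ was 0.30 after upper quartile scaling, still called.

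Newly made PKC is phosphorylated into its mature form by PDPK1 and by the mTOR complex that contains RICTOR, with HSP90 as chaperone, and is dephosphorylated by PHLPP phosphatases. Of the 11 genes of this list, all tested, 8 were called higher and 1 lower, at a median of 0.42. HSP90AB1 rose from 447 ± 3.24 to 863 ± 3.74 TPM (0.95, SE 0.01, limma adjusted p = 2.77e-08), RICTOR rose by 0.60 and PHLPP1 by 1.06 on the log2 scale. The kinase MTOR fell from 26.7 ± 1.13 to 19.7 ± 1.72 TPM (-0.42, SE 0.07). The length and GC correction moved HSP90AB1 to 0.60, RICTOR to 0.21 and MTOR to -0.75, all still called. After median-of-ratios scaling the list had 7 genes called higher and 3 lower. The list thus held PHLPP1, which acts against PKC, among its largest rises, together with factors that mature it.

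Of 9 partners of atypical PKC tested (11 listed), 6 were called higher and 1 lower, at a median of 0.38, and 6 higher and 2 lower after median-of-ratios scaling. Over all tested genes, too, more were called higher (44.5%) than lower (22.3%). CDC42, the small GTPase that activates the PAR6 and PKC iota complex, rose from 169 ± 3.18 to 264 ± 1.70 TPM (0.64, SE 0.02, limma adjusted p = 7.82e-07). PARD6B, which encodes a form of PAR6, rose from 6.16 ± 0.39 to 10.7 ± 0.89 TPM (0.70, SE 0.08). The other PAR6 gene tested was not called. SQSTM1, a scaffold that binds atypical PKC, rose by 0.29 on the log2 scale, a call that was lost after upper quartile scaling (0.05). LLGL2, a polarity protein that atypical PKC phosphorylates, fell from 59.0 ± 2.73 to 47.3 ± 1.15 TPM (-0.31, SE 0.04). The other LLGL gene of the list was called higher. The length and GC correction lowered CDC42 to 0.38 and PARD6B to 0.34, and upper quartile scaling moved LLGL2 to -0.55, all still called. PRKCI itself was, as given above, called only as deposited and in a few other fits.

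Other receptors of diacylglycerol share its binding domain with classical and nPKC isoforms. Of 9 tested (13 listed), 5 were called higher and 1 lower, at a median of 0.41. CHN1, a Rac-directed chimaerin, rose from 11.4 ± 1.51 to 23.6 ± 1.11 TPM (1.00, SE 0.09), and RASGRP1, an exchange factor for Ras, fell from 3.82 ± 0.34 to 0.89 ± 0.017 TPM (-1.35, SE 0.11). PRKD3, a protein kinase D that PKC phosphorylates, rose by 0.42 on the log2 scale, a call that was lost after the length and GC correction (0.09).

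Of kinases related to PKC by their catalytic domain, PKN2 was called higher (0.42) and PKN3 lower (-0.30). The call of PKN2 was lost after the length and GC correction (0.10), and that of PKN3 without Ctrl B (-0.27), rhLUM A (-0.28) or rhLUM C (-0.25). PKN3 was -0.51 after upper quartile scaling. Anchors and substrates of PKC had a median of -0.01, with 4 of 9 tested genes (15 listed) called higher and 3 lower. CAVIN2, a caveolar protein that binds PKC alpha, rose from 12.4 ± 0.22 to 24.6 ± 0.20 TPM (0.93, SE 0.04), CAVIN3, which binds PKC delta, fell from 52.4 ± 1.90 to 32.4 ± 0.46 TPM (-0.67, SE 0.04), and the anchoring protein AKAP12 rose by 0.70 on the log2 scale. AKAP12 was 0.32 after the length and GC correction, still called. After median-of-ratios scaling 4 genes of this list were called higher and 5 lower.

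The CARD proteins, BCL10 and MALT1 relay PKC signals to NF-kappa-B, a route best described for PKC beta and PKC theta in lymphocytes. Of these 6 genes, all tested, 4 were called higher and 2 lower, at a median of 0.36. MALT1, the protease of the complex, rose from 14.4 ± 0.47 to 21.5 ± 1.18 TPM (0.54, SE 0.06) and CARD10, its epithelial scaffold, rose by 0.48 on the log2 scale. CARD14, the scaffold of keratinocytes, fell from 11.8 ± 1.35 to 5.91 ± 0.85 TPM (-0.89, SE 0.12). MALT1 was 0.17 after the length and GC correction and CARD10 0.26 after upper quartile scaling, both still called.

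The surroundings of the member genes were compared next, counting tested genes within 1 Mb of either end. None of the 14 genes near PRKCB and none of the 7 near PRKCA had a log2 fold change as large as the isoform itself. Over all tested genes only 0.142% exceeded PRKCB and 0.886% PRKCA, and both were chosen on this contrast, so nothing is read from this. Near PRKCB, 9 genes were called higher and 2 lower, at a median of 0.23 and a largest value of 1.74 for the transporter SLC5A11. After median-of-ratios scaling these counts were 6 and 4, at a median of 0.08. Near PRKCA, 6 were called higher and 0 lower, at a median of 0.37 and a largest value of 1.12. After that scaling they were 3 and 0, at a median of 0.21. Of all tested genes 44.5% were called higher and 22.3% lower as deposited, and 34.4% and 30.8% after scaling. The genes near PRKCD had a median of 0.19 (25 genes, 11 called higher and 4 lower), those near PRKCE 0.37 (11 genes, 8 and 0), those near PRKCH 0.07 (7 genes, 2 and 1), those near PRKCI 0.10 (11 genes, 4 and 3) and those near PRKCQ -0.13 (10 genes, 3 and 4). Scaled by median of ratios, the counts were 10 and 6 near PRKCD, 6 and 0 near PRKCE, 1 and 2 near PRKCH, 3 and 4 near PRKCI and 3 and 5 near PRKCQ. Around PRKCZ, at the end of the short arm of chromosome 1, 25 of 33 tested genes were called lower and 1 higher, at a median of -0.47. After median-of-ratios scaling these counts were 28 and 1, at a median of -0.64. Neighbouring genes are not independent of each other, and these counts carry no test.

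**Figure D5:**
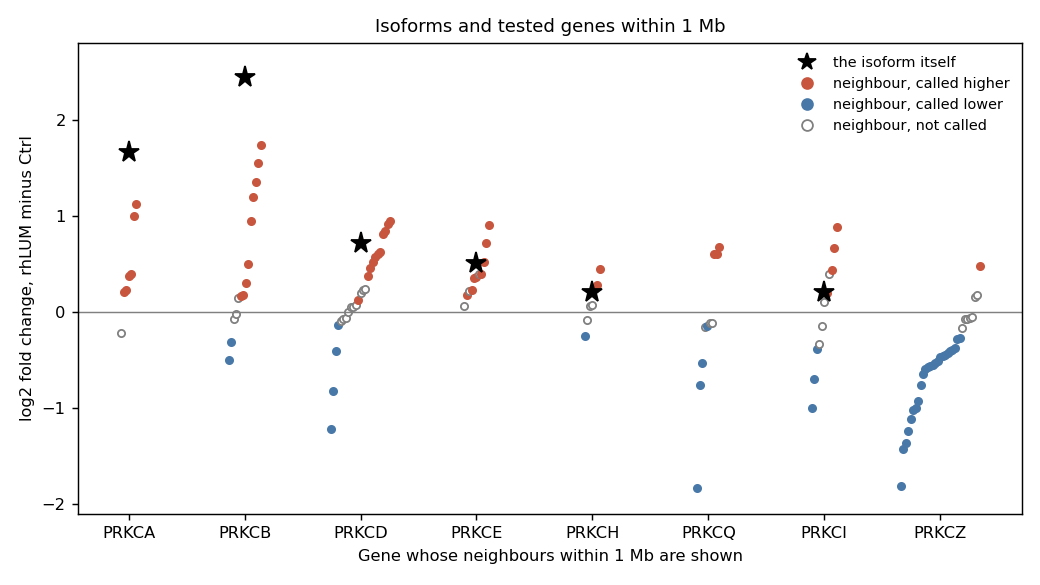
Log2 fold changes (y axis, rhLUM minus Ctrl) of tested genes within 1 Mb of each isoform are shown as points, red where called higher, blue where called lower and open where not called, with the isoform as a star where it was tested. The stars of PRKCA and PRKCB lie above all their neighbours, as they would above nearly all tested genes. The neighbours of PRKCZ lie mostly below 0, at a median of -0.47.

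By the Euclidean distance between log2(TPM + 1) profiles centred on their mean over the 6 libraries, the tested genes most like PRKCB, the isoform with the largest difference, were SCARA3, CDH17 and PDZK1. SCARA3, a scavenger receptor, was at a distance of 0.12 and went from 1.48 ± 0.12 to 12.7 ± 0.25 TPM. CDH17, the liver-intestine cadherin, was at 0.17 and went from 14.1 ± 0.10 to 76.5 ± 1.24 TPM. PDZK1, a PDZ-domain scaffold, was at 0.23 and went from 10.6 ± 0.99 to 56.1 ± 2.69 TPM. With 6 libraries in 2 groups, this likeness rests mainly on a similar difference between the groups.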

How the data were processed

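RNA of 3 Ctrl and 3 rhLUM xenograft libraries was sequenced as poly-A selected, paired-end Illumina libraries, per the labels' protocols. STAR 2.7.8, RSEM 1.2.31 and GRCh38 were used, per the submitters' processing notes. For the annotation release, use of strand and any removal of host reads, the steps were not given in the sources used here. The authors deposited 1 TPM value per row, per the file headers, for 60725 rows per library. TPM keeps no depth, so the depth is unknown and no counting interval can be given. The median coefficient of variation between libraries of a group was 12.1% (Ctrl) and 14.0% (rhLUM) for genes at 1 to 10 TPM and 4.51% and 4.93% at 10 to 100 TPM. Libraries of a group correlated at 0.978 to 0.983 and libraries of different groups at 0.928 to 0.935 (Pearson's r across genes, which are not independent). Rows above 0 TPM numbered 23525 to 24060 in Ctrl and 22323 to 22916 in rhLUM. A total of 2210 rows under 313 shared symbols were left out.

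Groups came from the labels. Genes averaging 1 TPM or more entered limma 3.58.1 (R 4.3.3) as log2(TPM + 1), with the variance trend, group as the only term and 4 residual degrees of freedom. Two-sided p-values received Benjamini-Hochberg adjustment over all 14781 genes, the threshold was 0.05, and the script was tested on simulated data. Fold changes on this scale understate those of low genes. Alternatives were 3 other scalings, a pseudocount of 0.1, no filter, a replicate block, no variance trend, a loess correction for transcript length and GC content (12850 genes) and leaving out each library. They were also run for the listed genes, which was decided after seeing the data. Members, lists and motifs were chosen with earlier results of these data known. Of each list, up to 3 genes with the smallest p past the threshold were named. For the member with the largest rise, its 3 most similar profiles were named, leaving out genes known only by a clone or locus number or absent from GENCODE 29. PLCD1, MTOR, LLGL2, SLC5A11, FAAP20 and the marker genes described singly were named after their values were seen. Gene positions came from GENCODE 29, promoters from RefSeq (13 entries, all 8 members matched), and all 81 listed genes were found, RACK1, CAVIN2 and CAVIN3 under older symbols. Some genes of the lists and markers are not reported here.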

Additional observations from a re-analysis of the deposited data

How the results depend on the processing

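The directions and calls of PRKCA, PRKCB, PRKCD and PRKCE were kept in all 14 alternatives, and the number of members called higher was 4 or 5 and of those called lower 0 in each. PRKCI came to -0.02 (SE 0.07) after upper quartile scaling and to -0.018 (SE 0.07) after the length and GC correction. Both values were smaller than their SE and not called. These member calls are descriptions, since the members were chosen on this contrast. Upper quartile scaling gave 5157 genes called lower, against 3299 as deposited, with 46.5% of calls higher, against 66.6%. Rescaling without mitochondrial genes gave 57.9% and the length and GC correction 56.8%. The rescaling without mitochondrial genes moved the summed TPM of the family from 61.2 to 77.0 in Ctrl and from 135 to 158 in rhLUM, which follows from removing part of a fixed sum. With the replicate block, 6429 genes were called higher and 3219 lower, and PRKCI kept its value of 0.21 but lost its call. Libraries with the same letter did not deviate together (r = 0.029 for A, -0.023 for B and 0.084 for C), so the letters were not taken to pair them. Leaving out each library gave 6140 to 6282 genes called higher and 2973 to 3124 lower. Among 30 genes named from the lists or for likeness, 407 of 418 alternative fits kept direction and call, and 11 lost the call. For the genes named in the text whose value moved by over 1.5 times, the largest move is given beside the gene. PRKCQ and PRKCZ could be fitted only without the filter and are given as levels. Exact permutation of single values was not used, since with 3 libraries a group the smallest p it allows is 0.1. TPM without depth leaves unknown how many reads lie behind the low values of PRKCE, PRKCH, PRKCQ and PRKCZ, and the gene-level tables do not separate transcripts.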
